A study of Mus musculus with 145 samples.

Results

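Transposon insertions were examined in 9 genes of epithelial cell polarity and cell junctions: Pard3, Pard3b, Dlg1, Scrib, Llgl1, Magi1, Magi2, Cdh1 and Ptprf. The genes were chosen by name, with earlier results of these data known. Their insertion sites were found by the Entrez identifier of each gene in the authors' table of gene regions. Of the 9 genes, 8 had a gene region among the 13391 of that table and 7 held at least 1 insertion. Over all 13391 gene regions, 11111 held at least 1. Scrib had no row and was not analysed here. Together the 7 genes held 189 of 101066 insertion sites, 72 in resistant tumours and 117 in untreated tumours. Resistant tumours numbered 51 from 25 mice. They had reached 250 mm3, were dosed each day with 30 mg/kg BYL719 (alpelisib, an inhibitor of PI3K alpha), and enlarged at 3 or more measurements in a row within 3 weeks. Untreated tumours numbered 94 from 23 mice. Mice of both groups carried WAP-Cre, the Cre-dependent piggyBac transposase LSL-PB, the Cre-dependent activated allele LSL-PIK3CA(H1047R) and the transposon donor ATP1, so that tumours of the untreated mice had the PIK3CA mutant and a mobile transposon as well. Cre came from the WAP promoter, which is switched on in the mammary gland in late pregnancy, and mice were mated to start it. Several tumours came from the same mouse, and ages were not given. The data are insertion sites in genomic DNA of mammary fat pad tumours and hold no RNA, so the tissue could not be checked by expressed markers.

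Epithelial cells keep an apical and a basal side through scaffold proteins that bind each other. PAR3 (Pard3) gathers PAR6 and atypical protein kinase C at the apical junction. The protein of Pard3b is related to PAR3 and has been tied to mammary stem cells and the kinase LKB1. DLG1, SCRIB and LLGL1 form the Scribble module of the basolateral side. MAGI1 and MAGI2 are scaffolds of the membrane-associated guanylate kinase family that sit at junctions. E-cadherin (Cdh1) holds neighbouring cells together in adherens junctions, and its loss is typical of lobular breast cancer. PTPRF, also named LAR, is a receptor phosphatase of cell contacts. The piggyBac transposon inserts at TTAA, and the ATP1 version can activate a gene from upstream or end its transcript from within.

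The site with the most reads in each gene was at TTAA, and its deposited sequence context is shown here because it names the insertion on which the highest read count of each gene rests. Capitals mark the TTAA.
Pard3, resistant tumour 45: TTAAaggg
Pard3b, resistant tumour 44: TTAAatgt
Dlg1, untreated tumour 57: TTAAagtt
Magi1, untreated tumour 45: TTAAttgt
Magi2, untreated tumour 3: TTAAtgga
Cdh1, untreated tumour 77: TTAAgttc
Ptprf, resistant tumour 11: TTAAtcag
Over all sites in the 7 genes, 180 of 189 lay at TTAA (95.2%), against 96.8% of all sites in gene regions. By gene these were 58 of 64 sites in Pard3b, 44 of 46 in Magi2, 32 of 33 in Magi1 and all sites in the others.

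The insertion closest to an annotated start lay in Pard3b. In resistant tumour 22 the transposon, in the direction of the gene, had 11 reads at position 61638796 of chromosome 1, which is 28 bases upstream of the start at 61638824. The sequence of the 250 bases before that start, chr1:61638574-61638823 on the plus strand, is printed from the RefSeq promoter table (GRCm38.p6) because the insertion lies inside it. Capitals mark the only TTAA in it, at which this insertion lies.
Pard3b promoter: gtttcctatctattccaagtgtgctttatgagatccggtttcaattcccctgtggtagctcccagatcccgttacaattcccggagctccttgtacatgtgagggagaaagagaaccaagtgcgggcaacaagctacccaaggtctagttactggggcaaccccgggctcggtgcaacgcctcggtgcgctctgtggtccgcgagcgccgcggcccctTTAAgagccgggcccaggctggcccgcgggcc
TTAA, which reads the same on both strands, was found in 8 of 13 promoter windows of 300 bases for the 7 genes matched in that table (61.5%) and in 52.4% of all 32851 windows. Cdh1 was not matched there.

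Libraries of resistant tumours held 51 to 1604365 reads (median 136932), and those of untreated tumours 2950 to 938987 (median 48339). A site was counted at 10 or more reads, and where several tumours had the same position and strand it was given to the one with the highest read count. Resistant tumours then kept 0 to 3320 sites (median 473) and untreated tumours 0 to 3017 (median 431), with 1 and 2 tumours at 0. Sample titles had 4 forms, Tgtumor and Mouse among resistant tumours and TgTum and tgTum among untreated tumours, so that form and group cannot be told apart. The medians of kept sites were 637 (Tgtumor), 241.5 (Mouse), 729 (TgTum) and 258 (tgTum). More reads at a site may mean more cells with the insertion or better amplification, and these cannot be told apart.

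A gene was called hit in a tumour that held at least 1 kept site between the start and the end of its region. The comparison asked whether polarity and junction genes were hit in a different share of tumours that grew under BYL719. Of the 6 genes hit in the 5 tumours or more needed for a test, 0 passed the two-sided Fisher exact test at 0.05 after Benjamini-Hochberg adjustment across the 2558 gene regions tested. In that comparison 0% of gene regions passed, and 3.01% (77 regions) had an unadjusted p under 0.05, none of them one of these genes. The share was higher in resistant tumours for 4 of the 6 and lower for 2, and over all regions tested it was higher in 53.1%. Intervals below are exact Clopper-Pearson 95% intervals. They take in counting error over tumours alone: reads of a PCR with no molecular identifiers are not independent molecules, and tumours of a mouse are not independent samples.

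**Figure D1:**
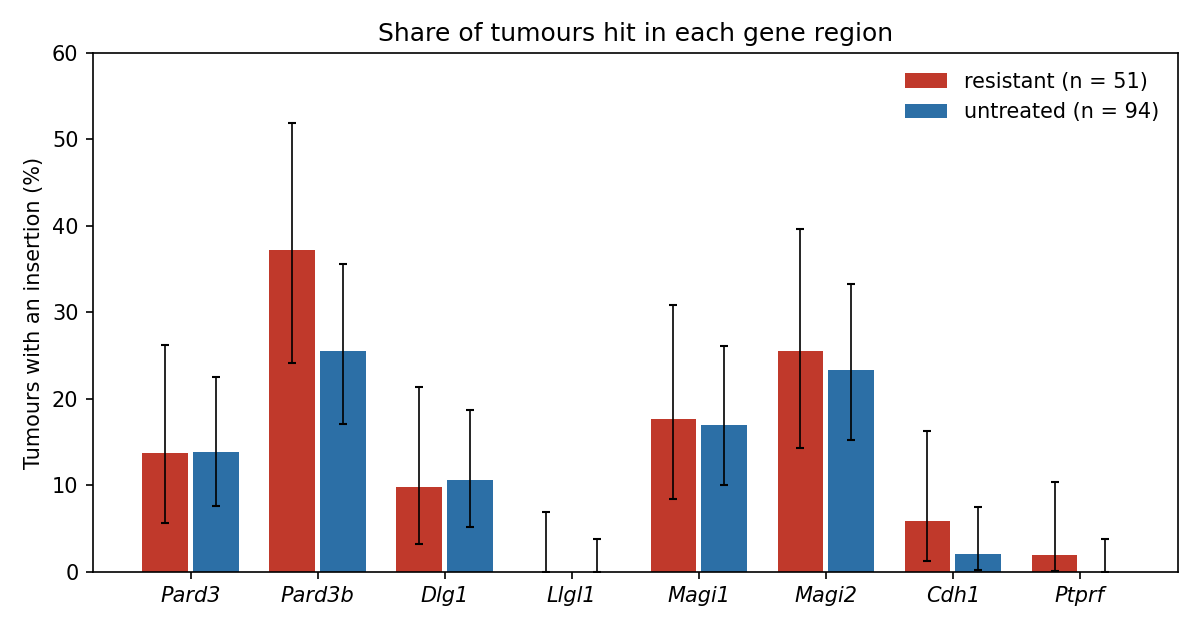
Percent of tumours with at least 1 insertion of 10 or more reads in each gene region (vertical axis), for resistant tumours (red, n = 51) and untreated tumours (blue, n = 94), with exact 95% intervals as vertical lines. Pard3b stands highest in both groups, at 37.3% and 25.5%, the intervals of the groups overlap in every gene, and Llgl1 is at 0 in both.

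Pard3b, the gene of the PAR3-like protein, was hit most often. Its hits were found in 19 of 51 resistant tumours, a share of 37.3% (24.1 to 51.9), and came from 13 mice. In untreated tumours there were 24 of 94, a share of 25.5% (17.1 to 35.6), from 15 mice. The odds ratio was 1.72 (95% interval 0.775 to 3.83, Fisher exact p = 0.182, adjusted p = 1). When the group labels were permuted over mice, the two-sided p was 0.246. By title form, the share hit in Pard3b was 45.7% for Tgtumor and 18.8% for Mouse, and 32.8% for TgTum and 12.1% for tgTum, so the forms of a group lay further apart than the groups. Counted over mice instead of tumours the order turned round, with 52% of resistant mice and 65.2% of untreated mice holding at least 1 hit tumour (Fisher exact p = 0.394). Untreated mice gave more tumours each (94 from 23 mice, against 51 from 25), so each had more chances to hold a hit tumour. The part of this in the counts over mice was not tested. With each library thinned to 20000 reads, which left 48 resistant and 70 untreated tumours, the shares were 18.8% and 17.1%. With only sites at TTAA counted, the shares were 33.3% of resistant and 24.5% of untreated tumours (Fisher exact p = 0.331).

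Pard3, which encodes the PAR3 scaffold itself, was hit in 7 resistant tumours of 7 mice, or 13.7% (5.70 to 26.3), and in 13 untreated tumours of 9 mice, or 13.8% (7.57 to 22.5). Its odds ratio was 0.991 (0.311 to 2.91, Fisher exact p = 1, permutation over mice p = 0.986). The shares were 17.1% and 6.25% in the Tgtumor and Mouse forms, and 19.7% and 3.03% in the TgTum and tgTum forms.

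Dlg1, the guanylate kinase scaffold of the Scribble module, was hit in 5 resistant tumours of 3 mice, or 9.80% (3.26 to 21.4), and in 10 untreated tumours of 8 mice, or 10.6% (5.22 to 18.7). The odds ratio was 0.914 (0.231 to 3.15, Fisher exact p = 1, permutation over mice p = 0.894). Counted over mice, 12% of resistant and 34.8% of untreated mice held a hit tumour (Fisher exact p = 0.0885), and untreated mice again gave more tumours each. In the thinned libraries the shares were 2.08% and 8.57% (p = 0.238). Llgl1, the third gene of the Scribble module, had a region of only 16.5 kb and 0 kept sites. Counting 3 tumours as the limit that 0 allows, its share could be up to 5.88% of resistant and 3.19% of untreated tumours.

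The MAGI scaffolds were hit at close shares in both groups at 10 reads, but not in every other count. Magi2 hits lay in 13 resistant tumours of 9 mice, or 25.5% (14.3 to 39.6), and in 22 untreated tumours of 14 mice, or 23.4% (15.3 to 33.3). Its odds ratio was 1.12 (0.463 to 2.63, Fisher exact p = 0.840, permutation over mice p = 0.790). Magi1 hits lay in 9 resistant tumours of 7 mice, or 17.6% (8.40 to 30.9), and in 16 untreated tumours of 10 mice, or 17.02% (10.1 to 26.2). Its odds ratio was 1.04 (0.373 to 2.77, Fisher exact p = 1, permutation over mice p = 0.941). Both genes varied with title form in untreated tumours. Magi1 was hit in 26.2% of TgTum and 0% of tgTum tumours, and Magi2 in 34.4% and 3.03%. In resistant tumours the Tgtumor and Mouse forms had 17.1% and 18.8% for Magi1, and 31.4% and 12.5% for Magi2. Over mice the order of both genes turned round, to 28% of resistant and 43.5% of untreated mice for Magi1 (Fisher exact p = 0.367) and to 36% and 60.9% for Magi2 (p = 0.148). Here too untreated mice gave more tumours each. In the thinned libraries the shares for Magi2 were 10.4% (resistant) and 21.4% (untreated; Fisher exact p = 0.140), and at 100 reads 1.96% and 8.51% (p = 0.160).

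Cdh1, the E-cadherin gene, was hit in 3 resistant tumours of 3 mice, or 5.88% (1.23 to 16.2), and in 2 untreated tumours of 2 mice, or 2.13% (0.259 to 7.48). The odds ratio of 2.85 had an interval of 0.316 to 35.2 (Fisher exact p = 0.345, permutation over mice p = 0.223), so these counts could not show a difference of that size. The resistant sites had 230 reads (tumour 2), 18 reads (tumour 10) and 13 reads (tumour 12), against 240 reads (tumour 11) and 939 reads (tumour 77) in untreated tumours. Both untreated sites were among the 10 sites with the most reads of their tumour, at rank 3 and 4, whereas the resistant sites ranked 324 or lower. Ptprf, the LAR phosphatase gene, was hit in 1 resistant tumour (1.96%) and 0 untreated tumours, with 28 reads, and was below the number needed for a test.

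Tumours with a hit held more kept sites than those without, for each of the 6 genes tested. Resistant tumours with a hit had median numbers of kept sites from 755 (Pard3b) to 2205 (Dlg1 and Cdh1), and those without a hit from 389 to 444.5. In untreated tumours the medians ran from 676.5 (Dlg1) to 1221.5 (Magi1) with a hit, and from 349.5 to 426.5 without. The part of depth and site number in the shares was not tested beyond the thinned libraries.

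At least 1 of the 8 genes was hit in 29 resistant tumours, or 56.9% (42.2 to 70.7), and in 48 untreated tumours, or 51.1% (40.5 to 61.5). At least 2 were hit in 14 resistant tumours of 10 mice (27.5%) and 26 untreated tumours of 13 mice (27.7%). Resistant tumours with 0, 1, 2 and 3 genes hit had medians of 220, 434, 802 and 910 kept sites, and untreated tumours medians of 259.5, 603.5, 953.5 and 2029. The highest numbers came from resistant tumours 10 and 11, each with 6 genes hit, and tumour 12, with 5. Tumours 10 to 12 came from 2 mice and held 27 of the 72 resistant sites (37.5%), against 21.9% of all resistant kept sites. Without them, left out after the data were seen, the resistant shares were 33.3% for Pard3b, 20.8% for Magi2, 12.5% for Magi1, 10.4% for Pard3, 4.17% for Dlg1 and 2.08% for Cdh1. Magi1, Magi2 and Cdh1 were then lower in resistant than in untreated tumours. Pard3 and Pard3b were hit together in 4 resistant and 11 untreated tumours, and Pard3b and Magi2 in 8 and 7.

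**Figure D2:**
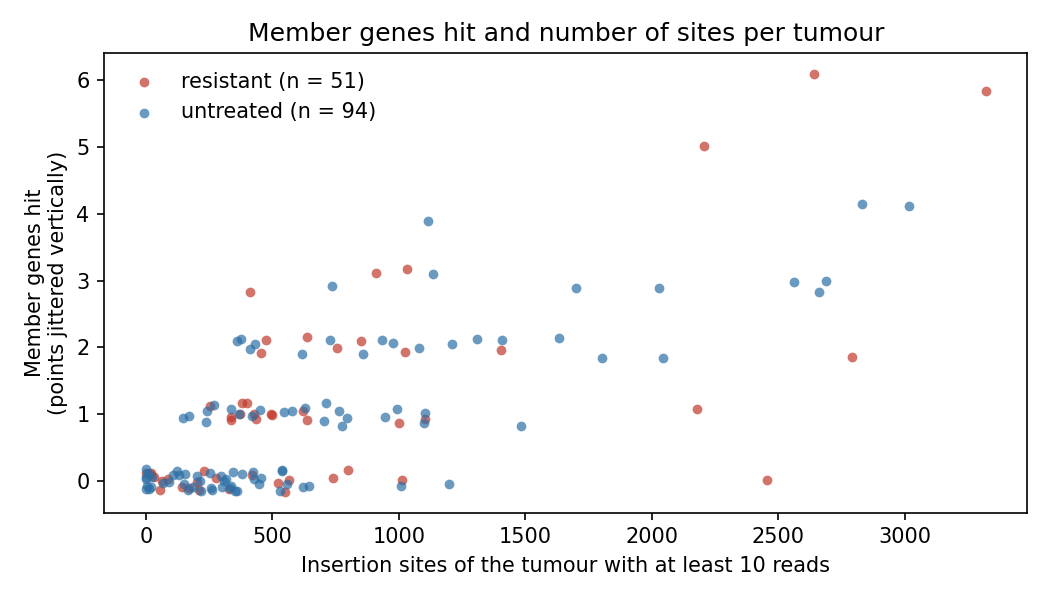
Number of the 8 genes hit in a tumour (vertical axis, points moved slightly up or down to separate them) against the number of kept sites of that tumour (horizontal axis), for resistant (red) and untreated (blue) tumours. Medians of sites were higher where more genes were hit, and the 3 resistant tumours with 5 or 6 genes hit had 2205 to 3320 sites, but resistant tumour 27 had 2456 sites and 0 genes hit and tumour 32 had 2793 sites and 2.

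Gene regions differed in length, so sites were also counted per length (mm10 coordinates of the authors' table). Pard3b spans 1005 kb (chr1:61636824-62642284, plus strand, identifier 72823) and held 22 resistant and 42 untreated sites. Magi2 spans 1480 kb (chr5:19225046-20704792, plus, 50791) with 20 and 26 sites, and Magi1 610 kb (chr6:93675453-94285917, minus, 14924) with 11 and 22. Pard3 spans 550 kb (chr8:127062056-127612286, plus, 93742) with 9 and 14 sites, and Dlg1 212 kb (chr16:31661443-31873356, plus, 13383) with 6 and 11. Cdh1 spans 68.9 kb (chr8:106601368-106670246, plus, 12550) with 3 and 2 sites. Ptprf spans 85.2 kb (chr4:118208213-118293397, minus, 19268) with 1 and 0, and Llgl1 lies at chr11:60697690-60714188 (plus, 16897). None of the 8 lies on chromosome 10, which carries the transposon donor.

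Per length at 10 reads, Dlg1 and Pard3b lay above gene regions overall and Magi2 below. Over both groups Dlg1 had 8.02 sites per 100 kb, or 1.86 times the 4.32 sites per 100 kb of all gene regions outside chromosome 10 (exact Poisson 95% interval 1.08 to 2.97). Pard3b had 6.37 sites per 100 kb, a ratio of 1.47 (1.14 to 1.88), and Magi2 had 3.11, a ratio of 0.720 (0.527 to 0.960). Ratios for Magi1 (1.25, 0.862 to 1.76), Pard3 (0.968, 0.614 to 1.45) and Cdh1 (1.68, 0.546 to 3.92) had intervals that held 1. Among the 989 regions of at least 200 kb, a class chosen after the data were seen, Dlg1 stood at the 96.3 percentile, Pard3b at 89.5 and Magi2 at 43.2, and among all gene regions outside chromosome 10 at 75.5, 66.7 and 37.2. The regions of at least 200 kb held 3.82 sites per 100 kb together (median 3.41). That value lay inside the 95% interval of Magi2 (2.28 to 4.15 sites per 100 kb). It lay below those of Dlg1 (4.67 to 12.8) and Pard3b (4.90 to 8.13). In resistant and untreated tumours the ratios to all gene regions were 1.66 and 1.99 for Dlg1, 1.28 and 1.60 for Pard3b, and 0.791 and 0.674 for Magi2. These intervals take sites as independent, although sites of a tumour are not, and 7 of the 42 untreated Pard3b sites came from untreated tumour 18. Without that tumour the ratio of Pard3b was 1.33 (1.008 to 1.72) over both groups and 1.36 (0.9504 to 1.90) in untreated tumours. Without resistant tumours 10, 11 and 12 the ratio of Dlg1 was 1.69 (0.926 to 2.84) over both groups, so its interval then held 1. At 100 reads the ratio of Pard3b was 0.899 in resistant tumours (4 sites) and 1.23 in untreated tumours (8 sites), and that of Magi2 was 0.153 (1 site) and 0.836 (8 sites).

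**Figure D3:**
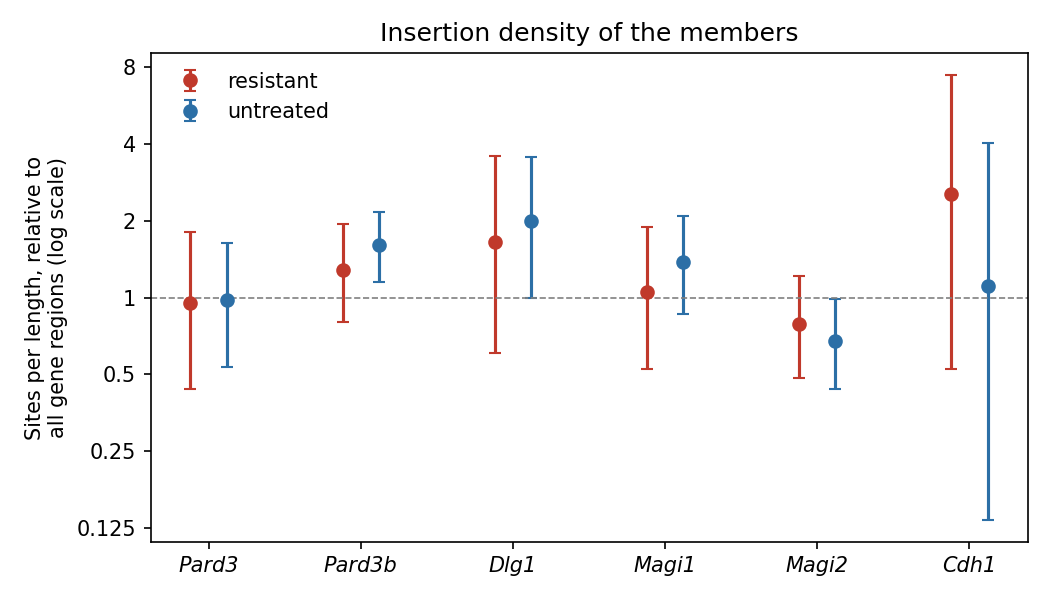
Sites per length of 6 genes divided by that of all gene regions outside chromosome 10 (vertical axis, log scale), for resistant (red) and untreated (blue) tumours, with exact Poisson 95% intervals. The dashed line marks 1, the groups' intervals overlap in every gene, and Magi2 lies below 1 in both groups.

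Orientation bears on whether a transposon could drive a transcript. Of the 64 Pard3b sites, 32 had the direction of the gene and 32 the opposite one. Among Pard3b sites of resistant tumours 10 of 22 had the direction of the gene, and among those of untreated tumours 22 of 42, of which 7 came from untreated tumour 18. Magi1 had 7 of 11 and 11 of 22, and Magi2 10 of 20 and 11 of 26. Sites opposite to the gene were the more frequent in Pard3 (7 of 9 resistant and 8 of 14 untreated) and in Dlg1 (4 of 6 and 8 of 11), and made up all 3 resistant Cdh1 sites and 1 of 2 untreated ones. Of the genes with the 10 sites needed, 0 of 3 (resistant tumours) and 0 of 5 (untreated tumours) departed from equal orientation by the exact binomial test (adjusted p = 1 each). In those families 0% of 262 and 0% of 575 gene regions passed, and the unadjusted p was under 0.05 in 4.96% and 3.65%. Between groups, Pard3b, Magi1 and Magi2 had Fisher exact p = 0.793, 0.712 and 0.766 (adjusted p = 1), where 0% of 218 regions passed and the unadjusted p was under 0.05 in 6.88%.

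**Figure D4:**
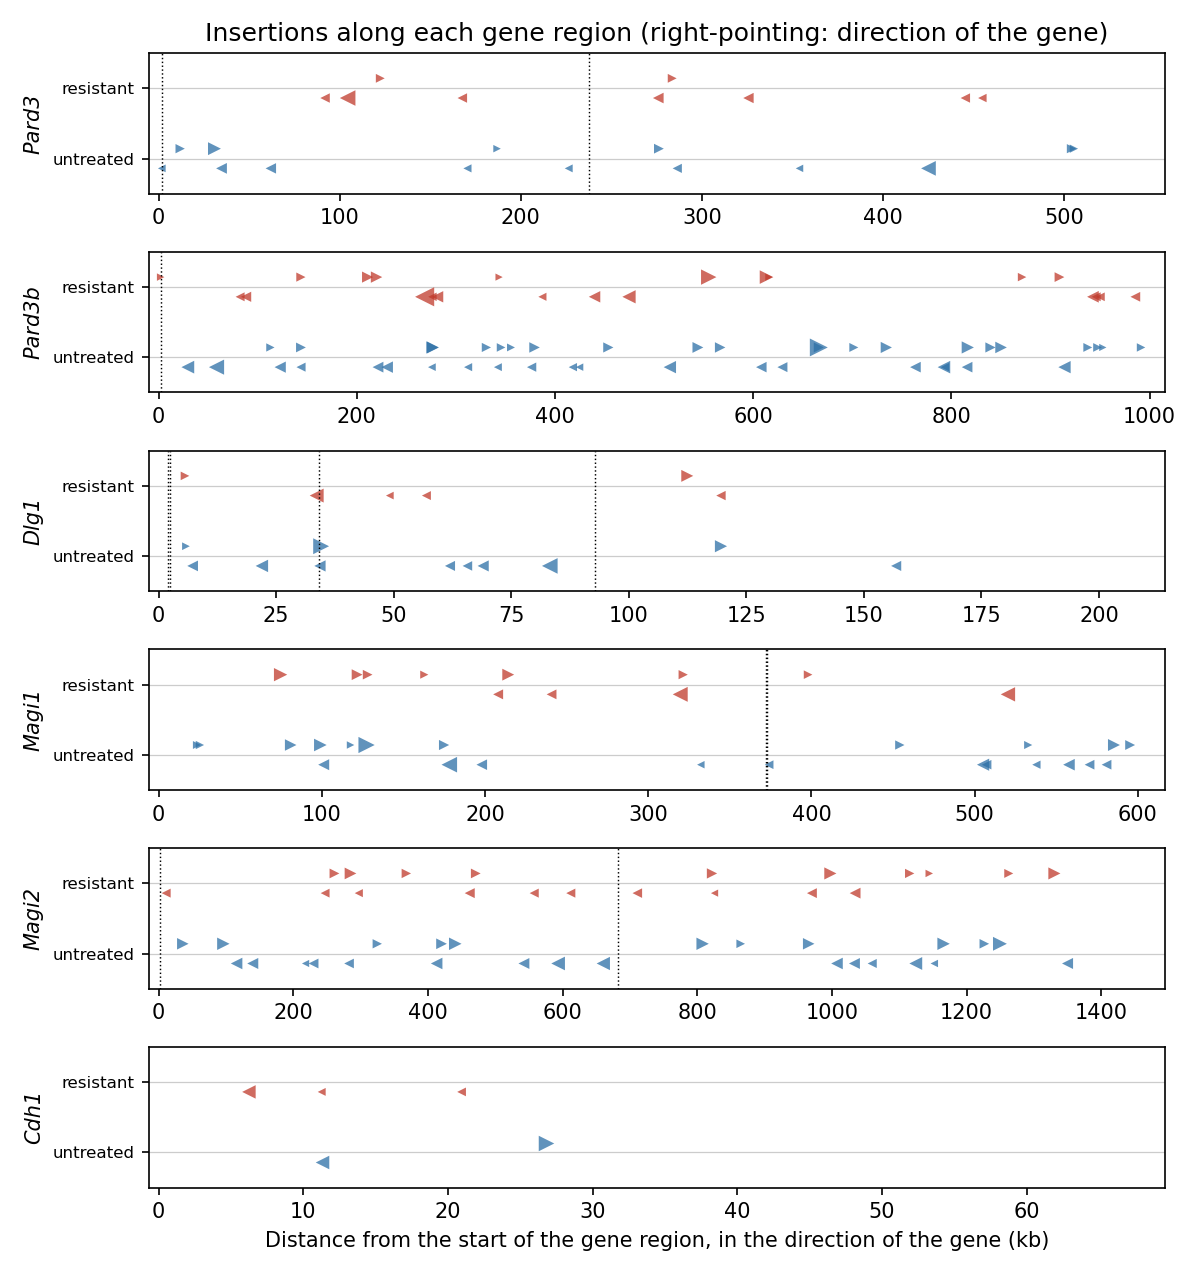
Position of each insertion along 6 gene regions (horizontal axis, kb from the start of the region in the direction of the gene), with resistant tumours in the upper row (red) and untreated tumours in the lower row (blue). Triangles pointing right have the direction of the gene, those pointing left the opposite one, their area grows with the log of the reads, and dotted lines mark annotated starts. Pard3b sites spread over the whole region, whereas 12 of 17 Dlg1 sites and 4 of 5 Cdh1 sites lie in the part nearest the start when the region is cut into 3 equal parts.

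Sites of Dlg1 lay toward its start. Cut into 3 equal parts from the start, the Dlg1 region held 12, 4 and 1 sites, of which 4, 2 and 0 came from resistant and 8, 2 and 1 from untreated tumours; this was not tested. Cdh1 held 4, 1 and 0 sites. Pard3b (22, 22 and 20), Magi2 (19, 12 and 15), Magi1 (14, 8 and 11) and Pard3 (10, 8 and 5) were spread more evenly. Over the 4496 gene regions of at least 50 kb the parts held 35.9%, 33.3% and 30.9% of sites. Magi1 has annotated starts inside its region, and 2 of 11 resistant and 11 of 22 untreated sites lay downstream of them, in 38.9% of the region's length. Downstream of such starts lay 5 of 9 and 6 of 14 Pard3 sites (56.8% of the length) and 10 of 20 and 12 of 26 Magi2 sites (53.9%). In Dlg1 these were 4 of 6 and 8 of 11 for the start at 31695548, and 2 of 6 and 2 of 11 for that at 31754350. The groups were not tested for this.

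A group of 3 Dlg1 insertions of 3 tumours lay within 948 bases around an annotated start inside the gene, at position 31695548 of chromosome 16. Resistant tumour 3 had 311 reads at 31695046, opposite to the gene and 502 bases upstream of that start. Untreated tumour 51 had 61 reads at 31695742, opposite to the gene and 194 bases downstream. Untreated tumour 57 had 1244 reads at 31695994, in the direction of the gene and 446 bases downstream. In Pard3, untreated tumour 22 had 12 reads at 127063766, opposite to the gene and 290 bases upstream of an annotated start.

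Insertions of different tumours came close together at other places in these genes too. How often this happens over all gene regions was not tested. A TTAA in Dlg1 at 31781038 to 31781041 was used in resistant tumour 11 against the gene (24 reads) and in untreated tumour 22 along it (100 reads). A TTAA in Pard3b at 61913069 to 61913072 was used in resistant tumour 48 against the gene (16 reads) and in untreated tumour 33 along it (92 reads). The Pard3b one belonged to 4 insertions of 4 tumours within 938 bases. In Cdh1, resistant tumour 12 and untreated tumour 11 had insertions 8 bases apart, at 106612638 and 106612630, both against the gene.

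Few of the insertions were among those with the most reads of their tumour. Of the 189 sites, 8 were among the 10 sites with the most reads of their tumour (4.23%, 4 in each group), against 1.40% of all sites in gene regions. At 100 or more reads were 15.3% of the resistant and 23.9% of the untreated sites, against 26.8% and 24.9% of all sites in gene regions of those groups. Of the 72 resistant sites, the 27 from resistant tumours 10, 11 and 12 had at most 32 reads each.

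In 2 tumours the site with the most reads of all lay in Pard3b. Resistant tumour 44 had 19013 reads at 61905218, opposite to the gene, which was 6.56% of the reads of that tumour. The same position and strand had at most 7 reads in each of 9 other resistant tumours and none in untreated tumours. Untreated tumour 18 had 6565 reads at 62303007, in the direction of the gene, or 11.5% of its reads, and the position had at most 6 reads in each of 22 other untreated tumours and none in resistant tumours. Tumour 18 held 7 Pard3b sites over 636 kb, all in the direction of the gene, and 1 of them lay 5 bases from the leading site. That one, at 62303012 with 33 reads, did not lie at TTAA (context ttcattga). The one at 61992360 did not either (gggggttc). Whether they are insertions of their own was not tested. With sites within 10 bp counted once, untreated tumours held 41 Pard3b sites, 51.2% of them in the direction of the gene. Resistant tumour 37 had a Pard3b site of 248 reads at 62250260, in the direction of the gene, at rank 7 (context TTAAaaag).

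In the other genes the leading sites had fewer reads. Pard3 had 982 reads at 127166410 in resistant tumour 45, opposite to the gene and at rank 6 of that tumour, and the other 8 resistant Pard3 sites had 16 to 44 reads. In untreated tumours its leading site had 524 reads at 127487184 (tumour 19, rank 15, opposite to the gene). The Dlg1 site of untreated tumour 57 ranked 3, with 2.87% of the reads, and had at most 4 reads in each of 11 other untreated tumours. Magi1 had 621 reads at 93966354 in resistant tumour 48 (rank 309, opposite to the gene) and 202 reads at 94211229 in resistant tumour 23 (rank 8, in the direction of the gene). In untreated tumours Magi1 reached 1638 reads at 94158544 (tumour 45, rank 108, in the direction of the gene). Magi2 had no site above 100 reads in resistant tumours (tumour 16, position 20222654) and none above 297 reads in untreated tumours (tumour 3, 20474518), both in the direction of the gene. The Cdh1 site of untreated tumour 77, at 106628127 in the direction of the gene, held 1.26% of the reads of that tumour. The Cdh1 site of resistant tumour 2 lay at 106607605, and the Ptprf site of resistant tumour 11 at 118240007.

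Of 67 further polarity and junction genes in 8 lists, 57 had a region and 27 were tested, with 13 higher and 14 lower in resistant tumours and 0 passing. Their median shares were 7.84% in resistant and 8.51% in untreated tumours, against 5.88% and 5.32% over all regions tested and 15.7% and 15.4% over the 6 genes above. Ctnnd1, which encodes the p120 catenin that binds E-cadherin, and Ppfibp2, a liprin gene of the family that binds LAR phosphatases, had an unadjusted p under 0.05. Each was hit in 6 resistant and 2 untreated tumours (11.8% and 2.13%, Fisher exact p = 0.0227, adjusted p = 0.990).

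The gene regions hit in the tumours most like those of the leading genes were picked by the Jaccard index, the tumours hit in both divided by the tumours hit in either, over all tumours of both groups and among regions on other chromosomes. For Pard3b, Arhgap18 on chromosome 10 had an index of 0.410 (25 of 61 tumours). For Magi2 they were Snd1 (0.373) and Gpc6 (0.364), and for Magi1 Atrnl1 (0.371) and Kcnma1 (0.353). The tumours shared in these 5 pairs had medians of 1102 to 2178 kept sites.

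The authors' deposited table, which counts by rules of its own, put Pard3b in 52.9% of resistant and 42.6% of untreated tumours. The medians over all gene regions there were 1.96% and 2.13%. In the authors' deposited table Pard3 stood at 27.5% and 20.2%. Dlg1 stood there at 9.80% and 23.4%, Magi1 at 21.6% and 36.2%, Magi2 at 31.4% and 34.04%, and Cdh1 at 5.88% and 6.38%. Signed scores of the authors' insertion test were 1.93 (resistant) and -0.22 (untreated) for Pard3. They were -0.323 and 0.358 for Pard3b, -0.144 and 0.052 for Dlg1, and 0 and 1.003 for Magi1. For Magi2 they were -2.06 and -3.33, and for Cdh1 0.833 and 0.786. Counted at 1 read or more in the site table, Dlg1 had reads in 6 resistant and 22 untreated tumours, against 5 and 10 tumours at 10 reads. Magi1 had reads in 11 and 35 tumours on that count.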

How the data were processed

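Genomic DNA of 51 resistant and 94 untreated tumours was examined by splinkerette PCR of the 5' transposon arm. The authors deposited a read count per site and library, which was used as deposited, and a table of gene regions with the percent of tumours hit and a signed score per group. Positions are on mm10, as the submitters' processing notes name it. What aligner and caller were used is not given in the sources used here. Further deposited whole numbers per library, which no header defines, served in alternatives only, and 435 further per-sample columns were left out. Groups came from the treatment labels and mice from the titles, which as read name 48 mice where the labels state 53. A resistant title whose mouse number had a further digit was read as the mouse of another resistant title. An untreated library titled R2 has the mouse and gland of another and was kept as a tumour of its own. Of positions tied between tumours, 551 were dropped. Strands came from the RefSeq promoter table (9755 regions) or from the end the authors had extended (2410 more), and both sources were equal in 98.0% of 8919 regions. Exons and introns were not assigned, for want of a gene model. Tests were run with SciPy 1.17.1, with 100000 permutations over mice. Only the Fisher exact test of shares was checked on simulated data, in which tumours were drawn as independent. The genes and lists were chosen with earlier results of these data known. Named were all 8 genes, their sites with the most reads per group, sites among the 10 with the most reads of a tumour, 2 genes of like pattern for each of the 3 genes hit most, and listed genes with an unadjusted p under 0.05. A gene of like pattern to Pard3b is not reported here. Sites near starts or near each other were picked after their values were seen.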

Additional observations from a re-analysis of the deposited data

How the results depend on the processing

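For the 6 genes tested, 102 of 126 comparisons under the alternatives held enough hit tumours for a test, and 0 of these passed the adjusted threshold. For Cdh1 a test was possible under 8 of 21 alternatives and for Pard3 under 16. Over all gene regions, 0 passed in the reported comparison, 1 passed with sites of at least 0.1% of a tumour's reads (534 regions tested), 14 with shared positions kept (2634) and 1 with the tgTum form alone (1037). Differences are given in percentage points, resistant minus untreated.

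The direction of the difference changed as follows, and the cause was not tested. At 5 reads it was 1.69 for Pard3, -1.67 for Magi1 and -0.0417 for Magi2. At 20 reads it was 1.29 for Pard3, -1.67 for Magi2 and -0.167 for Cdh1, and at 100 reads -6.55 for Magi2 and -0.167 for Cdh1. With the 100 sites with most reads it was 0.897 for Pard3 and -2.13 for Cdh1, and with 300 sites -2.46 for Magi1 and -2.13 for Cdh1. With sites of 0.1% of the reads it was -2.80 for Pard3b, -1.40 for Magi1, -3.53 for Magi2 and -2.13 for Cdh1. It was -1.34 for Magi1 with shared positions dropped. Thinned to 20000 reads it was -0.238 for Magi1, -11.0 for Magi2 and -0.774 for Cdh1. It was 0.960 for Pard3 with another deposited whole-number column and -1.06 for Cdh1 with a further one at a minimum of 3, which was added after the data were seen. With the Tgtumor form alone it was 3.31 for Pard3 and 3.65 for Dlg1, and with the Mouse form alone -6.78 for Pard3b, -10.9 for Magi2 and -2.13 for Cdh1. With the TgTum form alone it was -8.58 for Magi1 and -8.94 for Magi2, and with the tgTum form alone 10.7 for Pard3 and 6.77 for Dlg1. Without resistant tumours 10, 11 and 12 it was -4.52 for Magi1, -2.57 for Magi2 and -0.0443 for Cdh1. Over mice, where untreated mice gave more tumours each, it was -13.2 for Pard3b, -15.5 for Magi1 and -24.9 for Magi2.

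The percent of sites in the direction of the gene crossed 50 on few sites. At 100 reads it did so for resistant Magi1 (33.3% of 3 sites), untreated Pard3b (37.5% of 8) and untreated Magi2 (62.5% of 8). With the 100 sites with most reads it did so for resistant Pard3b (80% of 5 sites), untreated Pard3b (16.7% of 6) and untreated Magi2 (100% of 1). Leaving out untreated tumour 18, a choice made once the data were known, gave 42.9% of 35 sites for untreated Pard3b (exact binomial p = 0.4996).

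With the 100 sites with most reads the ratio of sites per length was 2.41 for resistant Pard3b (5 sites), 4.12 for untreated Dlg1 (3), 0.529 for untreated Pard3 (1), 0.477 for untreated Magi1 (1) and 0.197 for untreated Magi2 (1).

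Against the tgTum form alone the unadjusted Fisher exact p was 0.0130 for Pard3b, 0.0103 for Magi1 and 0.00678 for Magi2. After adjustment these were 0.356, 0.334 and 0.334, and 98 of the 1037 regions tested had an unadjusted p under 0.05. The tgTum libraries had the lowest median of reads of the 4 title forms (22542). The number of tumours hit limits every comparison, and Ptprf and Llgl1 had too few for a test. No paired analysis was possible because no mouse named in the titles gave tumours to both groups.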
